A study of Homo sapiens with 16 samples.

Results

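A set of 120 transcript features was higher in HT1080 cells at every sampled time after A0 was added, from 1 h to 12 h, while lying close to the control level after 12 h of cisplatin. The array carried 24350 features named by a GI sequence number, and the 120 were chosen by measured values. On log2 of the authors' processed values, with values under 32 set to 32, each had a group mean at least 0.8 above the mean of the controls after 1, 3, 6 and 12 h of A0. Each also had a cisplatin 12 h mean between -0.6 and 0.8 from control, and a detection score of at least 0.99 on both A0 12 h arrays. Of 155 features with the required rise at all A0 times, 28 lay above the upper cisplatin limit, 6 lay below the lower one, and 1 more failed the detection minimum. The A0 times and cisplatin 12 h, set against control, therefore describe the choice and were not tested.

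The cells were HT1080, a human fibrosarcoma line, grown in complete medium. They were given A0, a thioxotriazole copper(II) complex, at 25 µM for 1, 3, 6 or 12 h, or cisplatin at 25 µM for 3, 6 or 12 h, or were left as controls. Each of these 8 groups had 2 single-colour Illumina bead arrays, 16 in all, and no cisplatin array at 1 h was analysed here. When the controls were harvested is not stated, nor whether the 2 arrays of a group represent separate cultures. The p-values thus reflect the spread between individual samples, possibly a technical one.

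Cisplatin is a platinum drug that binds DNA and blocks its replication. Copper complexes can carry copper into cells, where an excess of the metal binds thiol groups of proteins and generates reactive oxygen species. Cells answer such damage by transcribing genes for metal binding, protein folding, redox balance and the unfolded protein response, the reaction to misfolded protein in the endoplasmic reticulum, which the series title names for A0. None of the GI numbers could be paired with a gene in the reference tables used here, so no gene, role or sequence is given and 4 features stand for the set by their array names. For the same reason the marker genes of the cell line could not be checked. An array detected between 7626 and 9640 features, with a median of 41 to 42 beads per feature, and replicates correlated at 0.961 to 0.984 across the 9293 features tested.

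The set lay near the 9293 tested features as a whole in feature type and in control level. Of its names, 99 ended in S (82.5%, against 82.4% of all tested features), 14 in A (11.7% in both) and 7 in I (5.83%, against 5.88%). They carried 120 distinct GI numbers. Their normalised log2 signal in the controls had a median of 7.09 (range 5.0 to 11.84), against a median of 7.18 over all tested features (4.37 to 14.75). Both arrays detected 120 of the members at A0 1, 3 and 12 h and 119 at A0 6 h. The number was 112 at cisplatin 3 h, 111 at cisplatin 6 h, 94 at cisplatin 12 h and 102 in the controls. For the 5 members detected on neither control array, the control level, and so a difference from it, is uncertain.

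Most members rose modestly, and a few rose far. On the normalised log2 scale, where a difference of 1 is a doubling, the median difference from control was 1.10 at A0 1 h (range 0.49 to 4.60), 1.11 at A0 3 h (0.48 to 6.32), 1.09 at A0 6 h (0.48 to 8.29) and 0.91 at A0 12 h (0.24 to 8.77). The corresponding medians over all tested features were -0.023, -0.024, -0.029 and -0.058. A member's difference had a median standard error of 0.279, so the smallest rises were under 2 such errors. Without the 5 members undetected in the controls the medians were 1.13, 1.11, 1.09 and 0.89. At A0 12 h, 17 members differed by at least 2 and 69 by less than 1.

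By array, the median difference from the control mean was 1.14 and 1.04 at A0 1 h, 1.26 and 0.94 at A0 3 h, 1.27 and 0.84 at A0 6 h, and 0.95 and 0.94 at A0 12 h. The cisplatin 3 h arrays had medians of 0.94 and 0.68, those at 6 h 0.65 and 0.40, and those at 12 h 0.13 and 0.06. The controls had 0.02 and -0.02. Replicate 1 had the higher median in 8 of 8 groups. Before normalisation it was also the dimmer array in 7 of 8 groups by the 95th percentile of raw signal, for example 576 against 1260 at A0 3 h, and the part of this difference in the results was not tested. When arrays were centred on their 75th percentile instead of quantile normalised, A0 12 h replicate 1 had the lower median (1.01 against 1.19) and the other groups kept their order.

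**Figure D1:**
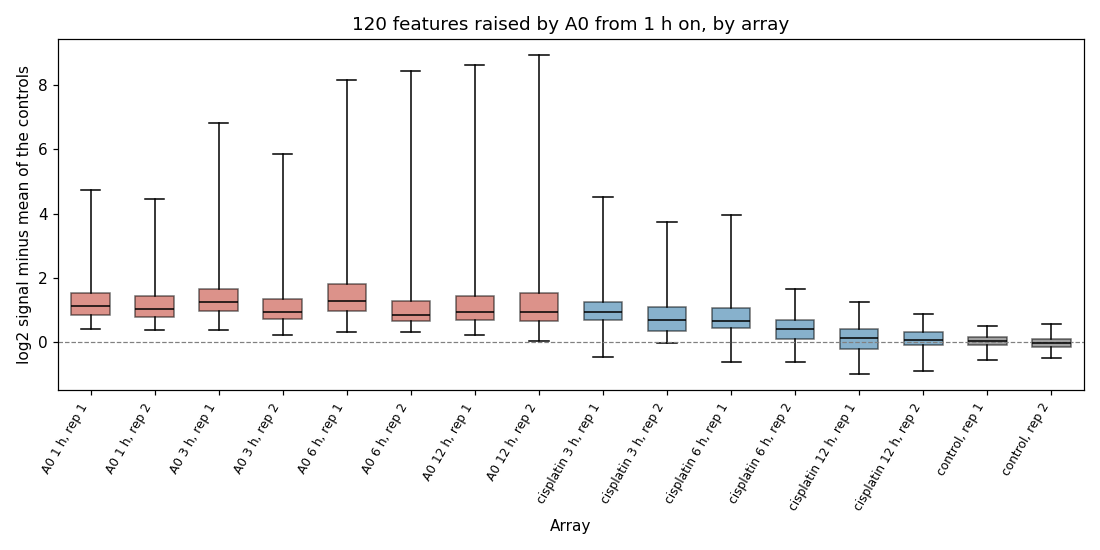
Normalised log2 signal of the 120 features minus the mean of the controls (vertical axis), on each of the 16 arrays (horizontal axis). Boxes span the quartiles, lines mark the median and whiskers reach the lowest and highest member; medians lie between 0.84 and 1.27 on A0 arrays, and are 0.94 and 0.68 at cisplatin 3 h and 0.13 and 0.06 at cisplatin 12 h.

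Over the members, the 6 h replicates stood farther apart than those of the other groups. Their median absolute difference was 0.51 at A0 6 h and 0.42 at cisplatin 6 h, against 0.17 to 0.38 in the other groups. Over all tested features this was not so: the distance was 0.30 at A0 6 h and 0.23 at cisplatin 6 h, against 0.30 at cisplatin 3 h, 0.31 at cisplatin 12 h and 0.18 to 0.26 in the others. Over the members, A0 6 h replicate 1 lay nearer to the A0 3 h mean (median absolute difference 0.19) than to the A0 12 h mean (0.47), whereas replicate 2 lay nearer to A0 12 h (0.24) than to A0 3 h (0.35). Cisplatin 6 h split likewise: replicate 1 differed by 0.17 from cisplatin 3 h and by 0.60 from cisplatin 12 h, and replicate 2 by 0.55 and 0.37. Over all tested features the nearer time was the same for each of these arrays, with distances of 0.21 and 0.31 for A0 6 h replicate 1, 0.24 and 0.20 for A0 6 h replicate 2, 0.22 and 0.26 for cisplatin 6 h replicate 1, and 0.28 and 0.23 for cisplatin 6 h replicate 2. For the members, a mean at 6 h is therefore an average of unlike arrays.

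**Figure D2:**
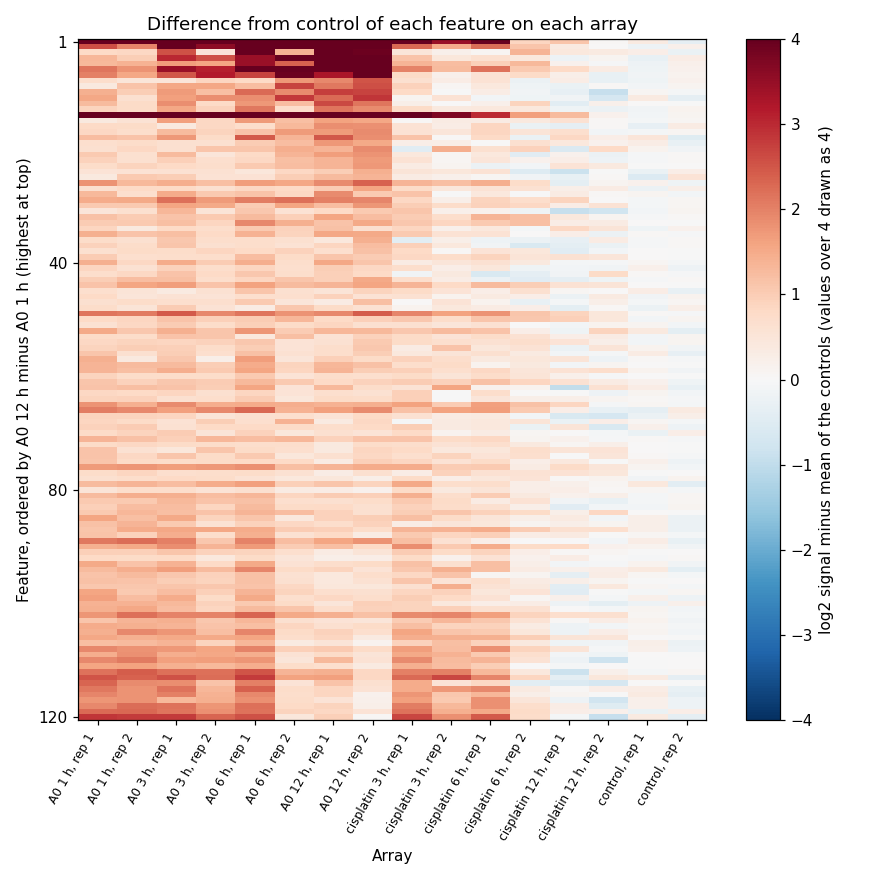
Each row is 1 of the 120 features, ordered by A0 12 h minus A0 1 h with the highest at the top, and each column is 1 array; colour gives the normalised log2 signal minus the mean of the controls, with values over 4 drawn as 4. Rows at the top darken toward A0 12 h and rows at the bottom pale, and within A0 6 h and cisplatin 6 h replicate 1 resembles the earlier time and replicate 2 the later one.

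The choice of members used these same A0 arrays, but it set the same minimum rise at each time, so it fixed no order among the A0 times, while limiting how far a member could fall. The fitted differences within the A0 course are therefore given feature by feature, and the members' shares are not read against those of unselected features. In A0 12 h against A0 1 h, limma called 17 members higher (14.2%; all tested features, 6.28%) and 9 lower (7.50%; all tested features, 8.71%) at an adjusted p of 0.05 over all 9293 features. The 17 rises were 0.74 to 4.40 on the log2 scale (median 1.56, adjusted p from 3.88e-05 to 0.0329), and the 9 falls were -2.33 to -0.66 (median -1.08, adjusted p from 0.0133 to 0.0441). All 26 had A0 12 h arrays that did not overlap the A0 1 h arrays. The same held for every called member of the other comparisons, so it adds little to the calls.

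Over the whole set, the A0 12 h arrays lay wholly above the A0 1 h arrays for 33 members (27.5%; all tested features, 29.2%) and wholly below for 56 (all tested features, 33.5%). The median difference was -0.13 (range -2.33 to 4.40), against -0.027 over all tested features. Centring on the 75th percentile shifted the all-feature median to 0.125; the members' median was then 0.036 and the calls were 19 higher and 3 lower. On the authors' processed values the members' median was 0.003 and the calls were 18 and 2. The call of 26 also rested on the arrays compared: it fell to 9 higher without A0 1 h replicate 1, 6 higher without replicate 2, 12 higher and 5 lower without A0 12 h replicate 1, and 7 higher without replicate 2. In 3 of these 4 fits 0 members were called lower.

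Single steps of the A0 course gave almost no calls. For A0 3 h against A0 1 h limma called 0 members in either direction, with 7 at an unadjusted p under 0.05. For A0 6 h against A0 3 h it also called 0, with 6. Over all 9293 tested features 0.0% were called in both, and 358 and 478 had an unadjusted p under 0.05. Trended and robust variances gave 1 call in A0 3 h against A0 1 h. In A0 12 h against A0 6 h, 11 members had an unadjusted p under 0.05, against 1084 of all 9293 tested features. After adjustment 1 member was called higher (0.833%, against 0.43% of all features) and 0 lower (against 0.194%). That member's log2 signal was 11.01 and 11.22 at A0 12 h, against 10.18 and 9.06 at A0 6 h, a difference of 1.49 (limma adjusted p = 0.034). It kept its call in 5 of the 16 fits that left out an array, and not in the 2 fits with no filter or with the compared arrays only. The highest mean fell at A0 1 h for 46 members, at 3 h for 22, at 6 h for 13 and at 12 h for 39. For 24 members the means ran upward through all 4 times and for 31 downward.

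The feature with the array name GI_42822885-S had the largest mean rise over the A0 times. It read 9.75 and 9.42 on the log2 scale at A0 1 h, 12.01 and 11.05 at A0 3 h, 13.36 and 13.64 at A0 6 h, and 13.83 and 14.15 at A0 12 h. With cisplatin it read 9.74 and 8.67 at 3 h, 9.16 and 6.06 at 6 h, then 6.33 and 5.28 at 12 h, and in the controls 5.58 and 4.85. It was high at the first A0 time and read higher at 3 and 6 h, whereas with cisplatin it was highest at 3 h and near the controls by 12 h. Only 1 of the 2 arrays detected it at cisplatin 12 h and in the controls. A0 12 h exceeded A0 1 h by 4.40 ± 0.72 (SE, n = 2 arrays each, limma adjusted p = 0.00182), and this call held in all 16 fits that left out an array (adjusted p up to 0.0207).

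The next largest mean rise belonged to GI_4504436-S. Its log2 signal was 12.11 and 11.81 at A0 1 h, 12.71 and 12.89 at 3 h, 12.57 and 13.39 at 6 h, then 12.85 and 13.39 at 12 h. Cisplatin arrays read 11.56 and 11.10 at 3 h, 10.35 and 9.01 at 6 h, then 8.62 and 7.54 at 12 h, and controls 7.27 and 7.47. Most of the A0 level was reached by 1 h. A0 12 h differed from A0 1 h by 1.16 ± 0.42 (SE), which did not pass (limma adjusted p = 0.0816), although it passed with 75th percentile centring (adjusted p = 0.0178), on the authors' values (adjusted p = 0.0279) and with the compared arrays only (adjusted p = 0.0337).

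Among the members called lower at A0 12 h than at A0 1 h, GI_21361242-S fell most. It had 11.90 and 11.83 at A0 1 h, 11.82 and 11.35 at 3 h, 11.57 and 9.50 at 6 h, then 9.99 and 9.08 at 12 h. Its cisplatin signals were 11.70 and 10.85 at 3 h, 11.48 and 9.76 at 6 h, then 8.94 and 8.12 at 12 h, against 9.38 and 8.68 in the controls. The A0 12 h array readings thus overlapped the controls on this scale, although the feature met the minimum rise on the authors' values. A0 12 h lay below A0 1 h by 2.33 on the log2 scale (log2 difference -2.33, SE 0.62, limma adjusted p = 0.0235); the call was lost without A0 1 h replicate 1 or 2 or without A0 12 h replicate 2 (adjusted p up to 0.168), and also on the authors' values (adjusted p = 0.058), with no filter (adjusted p = 0.0679) and with trended and robust variances (adjusted p = 0.0664).

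GI_4503980-S followed a similar course at a lower signal. It read 8.83 and 8.87 at A0 1 h, 8.72 and 8.41 at 3 h, 8.75 and 7.46 at 6 h, then 7.40 and 7.12 at 12 h. With cisplatin the readings were 8.74 and 7.99 at 3 h, 8.09 and 7.33 at 6 h, then 6.86 and 6.79 at 12 h, and the controls read 6.32 and 6.84. For both falling features, A0 6 h replicate 1 was near the A0 3 h arrays and replicate 2 near the A0 12 h arrays. Its A0 12 h minus A0 1 h difference was -1.59 (SE 0.38, limma adjusted p = 0.0133), lost without A0 1 h replicate 1 or 2 or A0 12 h replicate 2 (adjusted p up to 0.0947).

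**Figure D3:**
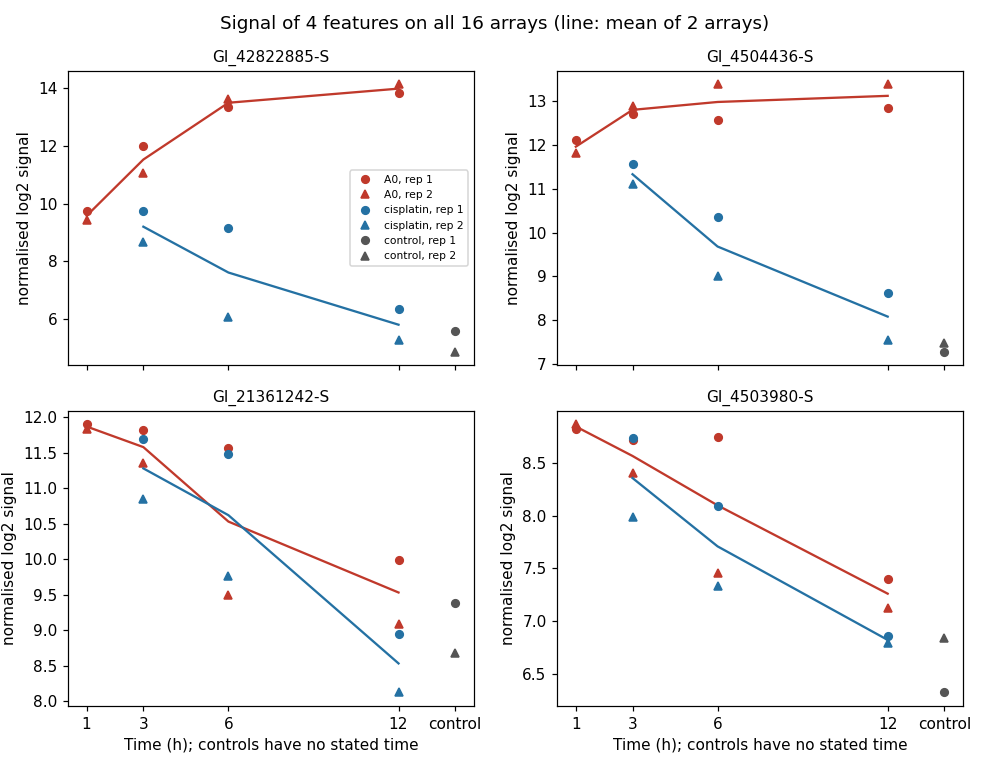
Normalised log2 signal (vertical axis, a separate range in each panel) of 4 features against time in hours (horizontal axis); circles and triangles are replicate 1 and 2, and lines join the means of the A0 arrays and of the cisplatin arrays, with controls at the right. GI_42822885-S reaches 13.83 and 14.15 at A0 12 h while GI_21361242-S and GI_4503980-S lie less than 1 log2 unit above the control mean on both arrays.

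Most members also read above control at the first sampled cisplatin time. The cisplatin 3 h and 6 h arrays took no part in the choice, but the controls did: members were picked for lying above these same 2 control arrays, so differences from them, and calls and shares built on them, are biased upward. The members' median difference from control was 0.80 at cisplatin 3 h (range -0.09 to 3.99), 0.52 at 6 h (-0.50 to 2.40) and, within the limits of the choice, 0.07 at 12 h (-0.86 to 0.71), against -0.023, -0.013 and 0 over all tested features. Both cisplatin arrays lay above both controls for 100 members at 3 h (83.3%, against 20.9% of all tested features), 83 at 6 h (69.2%, against 27.9%) and 29 at 12 h (24.2%, against 27.0%). The same counts with A0, fixed largely by the choice, were 119 at 1 h, 120 at 3 h, 120 at 6 h and 117 at 12 h, with 27.3%, 24.1%, 22.7% and 25.5% of all tested features so placed.

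A count free of the choosing array's own error needs a control that took no part in the choice. The features were therefore also chosen with 1 control only and set against the other, an alternative added after the data were seen. A shift shared by both controls would remain in this count. The 138 features chosen with control 2 only had a median of 0.64 above control 1 at cisplatin 3 h and 0.39 at 6 h, and both cisplatin arrays lay above control 1 for 108 of them (78.3%, against 31.7% of all tested features) and 86 (62.3%, against 38.0%). The 133 features chosen with control 1 only had 0.53 above control 2 at 3 h and 0.37 at 6 h, and both arrays lay above control 2 for 102 (76.7%, against 32%) and 88 (66.2%, against 38.6%). Most of the features thus read higher with cisplatin than a control that had not chosen them. The medians were smaller than against both controls, but over other lists: 96 of the 138 and 93 of the 133 were members. The change of features and the change of control cannot be told apart here. Few passed with a lone control: limma called 1 and 0 higher than control 1 at 3 h and 6 h (against 0.0108% and 0.172% of all features), and 0 and 1 higher than control 2 (against 0.0215% and 0.226%). A lone control gives no spread of its own, so counts by p-value from these fits are not read further.

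The fit of cisplatin 3 h against both controls is given as a description because of that bias. At an unadjusted p under 0.05 there were 77 members, against 1320 of all 9293 tested features. After adjustment limma called 8 members higher (6.67%, against 0.204% of all tested features) and 0 lower (against 0.0646%). Their differences were 1.37 to 3.99 on the log2 scale (median 1.85, adjusted p from 0.00203 to 0.0359). They included GI_4504436-S at 3.96 (adjusted p = 0.00203) and GI_42822885-S at 3.99 (adjusted p = 0.0338), and the call of GI_42822885-S was lost when either control, either A0 1 h, either A0 3 h or either cisplatin 3 h array was left out (adjusted p up to 0.374), on the authors' values (adjusted p = 0.0564), with no filter (adjusted p = 0.11) and with trended and robust variances (adjusted p = 0.0899). The count was 1 without either control or either cisplatin 3 h array, 3 without any 1 of the A0 1 h or A0 3 h arrays, and 19 without either A0 6 h array. It was 13 with 75th percentile centring, 2 with no filter and 26 with trended and robust variances.

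At cisplatin 6 h, with the same bias, 51 members had an unadjusted p under 0.05, against 1912 of all 9293 tested features. After adjustment 19 members were called higher than control (15.8%, against 2.71% of all tested features) and 0 lower (against 2.41%). Their differences were 0.85 to 2.31 (median 1.26, limma adjusted p from 0.00521 to 0.0476). Of the 19, 1 was detected on neither array of a compared group, so its difference is uncertain. GI_4504436-S was called at 2.31 (adjusted p = 0.0102), but not without either control or without cisplatin 6 h replicate 1 (adjusted p up to 0.0928), while GI_42822885-S was 2.40 higher without passing (adjusted p = 0.0678). GI_42822885-S passed with 75th percentile centring (adjusted p = 0.0481). Its difference was 0.85 when cisplatin 6 h replicate 1 was left out (adjusted p = 0.527) and 3.94, which passed, when replicate 2 was (adjusted p = 0.00974). The count was 0 without control 2, 1 without control 1, 1 without cisplatin 6 h replicate 1 and 8 without replicate 2.

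Between 3 h and 6 h of cisplatin, a comparison of arrays that played no part in the choice, most members were lower at the later time, but none passed the test. The difference was below 0 for 98 members and above 0 for 22, with a median of -0.30 (range -1.64 to 0.44). Over all tested features the median was 0.016, so more of them lay above 0 than below. limma called 0 members in either direction, against 0.0% of all features higher and 0.0753% lower. At an unadjusted p under 0.05 there were 14 members, against 902 of all 9293 tested features. The other normalisations, filter, variances and blocks also gave 0 calls. The median by array ran from 0.94 and 0.68 at cisplatin 3 h to 0.65 and 0.40 at 6 h, so the lower 3 h array and the higher 6 h array nearly met. For GI_4504436-S the difference was -1.64 (limma adjusted p = 0.181) and for GI_42822885-S -1.59 (adjusted p = 0.492). Without cisplatin 6 h replicate 1 these were -2.31 and -3.14, and without replicate 2 they were -0.97 and -0.05.

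The same step under the different drugs was compared directly, as the change from 3 h to 6 h with A0 minus that with cisplatin. The A0 3 h and 6 h arrays in it also chose the members, though with the same minimum rise at both times. The interaction was above 0 for 98 members and below 0 for 22, with a median of 0.23 (range -0.42 to 3.56) and a median standard error of 0.394. Its A0 part had a median of -0.008, with 59 members above 0 and 61 below. The split thus largely repeats the cisplatin step on the same arrays and is not a separate result. Over all tested features the median was -0.020, so more of them lay below 0 than above. limma called 0 members in either direction, against 0.0% of all features, and 0 under the other normalisations, filter, variances and blocks. At an unadjusted p under 0.05 there were 11 members, against 670 of all 9293 tested features. GI_42822885-S had 3.56 ± 1.01 (SE, adjusted p = 0.347) and GI_4504436-S 1.83 ± 0.60 (SE, adjusted p = 0.454). Without cisplatin 6 h replicate 1 the first of these was 5.11, and without replicate 2 it was 2.02.

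Set side by side at matched times, without a test because the A0 values chose the members, A0 lay above cisplatin by a median of 0.23 at 3 h (range -0.17 to 2.35), 0.55 at 6 h (-0.18 to 5.89) and 0.89 at 12 h (-0.05 to 8.19). The 12 h gap follows from the choice, which required a rise at A0 12 h and held cisplatin 12 h near control. Both A0 arrays lay above both cisplatin arrays for 49 members at 3 h (against 15.6% of all tested features) and 69 at 6 h (against 24.2%), and both lay below for 1 and 0 members (against 14.8% and 26.3%).

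The members called higher at A0 12 h than at A0 1 h, and those called lower, also had unlike median cisplatin values. These values shared no array with that comparison, which gave the climbing and the falling members described here. The 17 climbing members had median differences from control of 1.03, 1.53, 2.07 and 2.57 at A0 1, 3, 6 and 12 h, and of 0.49, 0.54 and 0.06 at cisplatin 3, 6 and 12 h. The 9 falling members, a class that held 0 in 3 of the 4 fits without an A0 1 h or A0 12 h array, had 1.65, 1.49, 1.18 and 0.61 with A0, and 1.44, 1.13 and -0.10 with cisplatin. The 94 others had 1.04, 1.05, 1.01 and 0.89 with A0, and 0.80, 0.51 and 0.09 with cisplatin. At 3 h, then, the falling members stood about as high with cisplatin as with A0, and the climbing members stood lower with cisplatin. The choice and the classes fix part of this. A member called lower still had to meet the minimum rise at A0 12 h on the authors' values, so it had to start high. At A0 1 h the falling members lay 1.44 to 2.84 above control and the climbing members 0.49 to 4.37. The classes were thus partly sorted by early size, and what the cisplatin values add to that was not tested.

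At 3 h the A0 minus cisplatin difference was 0.20 to 2.35 in the climbing members (median 1.06) and 0.02 to 0.31 in the falling ones (median 0.12), ranges that overlapped only between 0.20 and 0.31. At 6 h the medians were 1.84 and 0.23. The falling members had a median control signal of 9.03 on the log2 scale, against 7.06 for the climbing members. By array, the falling members' median was 1.58 and 0.73 at A0 6 h and 1.42 and 0.66 at cisplatin 6 h, with replicate 1 higher for 9 of 9 members in both groups. For the climbing members it was 2.12 and 1.88 at A0 6 h, with replicate 1 higher for 6 of 17, and 0.43 and 0.53 at cisplatin 6 h, with replicate 1 higher for 10. The 94 others leaned as the falling members did, with replicate 1 higher for 75 at A0 6 h and 77 at cisplatin 6 h.

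**Figure D4:**
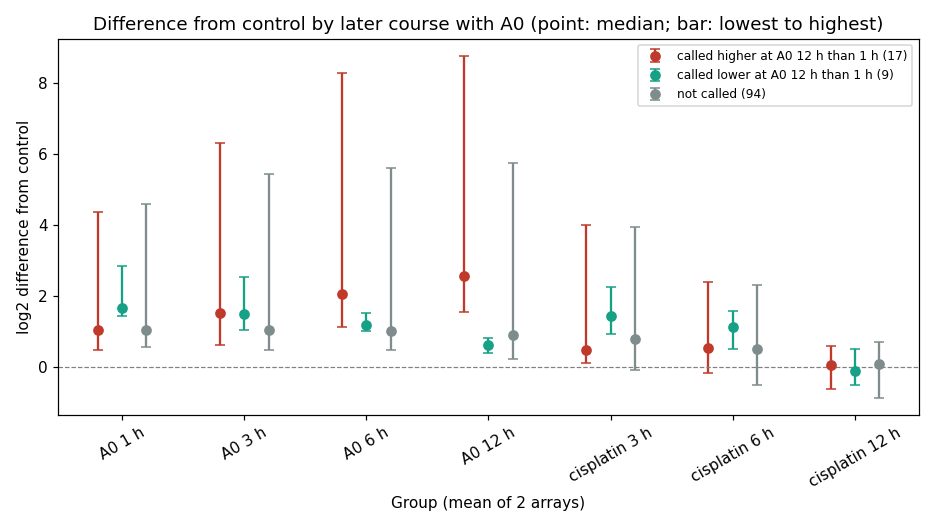
Log2 difference from control (vertical axis) in each treated group (horizontal axis), for the 17 features called higher at A0 12 h than at A0 1 h, the 9 called lower and the 94 not called. Points are medians over features and bars run from the lowest to the highest; the medians reach 2.57, 0.61 and 0.89 at A0 12 h, and 0.49, 1.44 and 0.80 at cisplatin 3 h.

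Across the 120 members, the A0 12 h minus A0 1 h difference went with the A0 3 h minus cisplatin 3 h difference, with Pearson's r of 0.737 and Spearman's rho of 0.548. Without the 10 members of largest A0 12 h minus A0 1 h size, r was 0.605 and rho 0.500. Over all 9293 tested features r was 0.117 and rho 0.045. With A0 6 h minus cisplatin 6 h in place of the 3 h difference, r was 0.779 and rho 0.532 over the members, 0.518 and 0.410 without those 10 members, and 0.250 and 0.161 over all tested features. These are descriptions across features read on the same few arrays, and features are not independent replicates. The A0 values on both axes also chose the members, so the members' correlations are not read against those over all tested features.

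**Figure D5:**
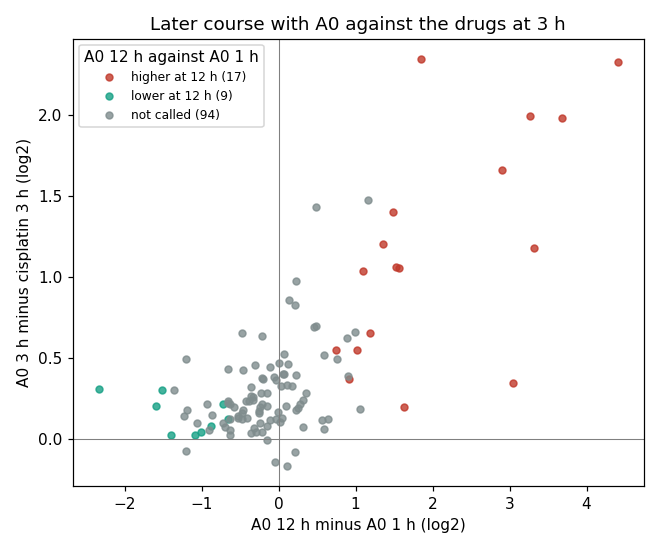
For each of the 120 features, A0 12 h minus A0 1 h (horizontal axis, log2) against A0 3 h minus cisplatin 3 h (vertical axis, log2), coloured by the call between A0 12 h and A0 1 h. The 17 features called higher lie between 0.20 and 2.35 on the vertical axis and the 9 called lower between 0.02 and 0.31.

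Of the members, 8 lay at least 3 above control at A0 12 h. Their median difference from control was 1.87, 3.06, 4.11 and 4.65 at A0 1, 3, 6 and 12 h, and 1.46, 1.37 and 0.29 at cisplatin 3, 6 and 12 h. The 69 members under 1 at A0 12 h had medians of 1.04, 1.04, 0.90 and 0.73 with A0, and 0.82, 0.51 and 0.07 with cisplatin. These larger and smaller groups differed at 12 h by their definition, and at 1 h by less.

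The set's edge was narrow. The lowest A0 difference among the members was 0.801, and the nearest feature outside had 0.792. On the cisplatin 12 h limits the nearest values inside and outside were 0.796 and 0.803 at the upper end, and -0.521 and -0.601 at the lower end. The lowest detection score inside was 0.994 and the feature left out had 0.985. Leaving out each of the A0, cisplatin 12 h and control arrays in turn gave from 95 to 138 features by the same rule, the highest number without control 1, when 96 of the 120 were among them. The same rule on the neqc values, the scale of the differences given here, was met by 55 features, 49 of them members.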

How the data were processed

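Biotin-labelled total RNA was read on 16 Illumina bead arrays, 2 for each of 8 groups named by the labels' titles. The deposited files hold, per the file headers, a mean bead intensity per feature on a linear scale, the count of beads behind it, and a detection score as a fraction from 0 to 1. Per the submitters' processing notes, the software was BeadStudio 1.5.1.3. The authors' second table holds processed intensity values, with a normalisation that no source used here names. It served to choose the members, as log2 of the value or of 32 where that was higher, and as an alternative.

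Background correction and normalisation used limma's neqc (version 3.58.1, R 4.3.3; normexp from detection p, offset 16, quantile, log2). Testing required a detection p no higher than 0.01 on both arrays of some group, which left 9293 of 24350 and all 120 members, since the choice required detection. The 4 bacterial features were left out. One model over all arrays (8 residual and 5.98 prior degrees of freedom) gave every comparison, with Benjamini-Hochberg adjustment over 9293 features at 0.05. The fit was tested on simulated data. The number of arrays limits the precision.

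The members and lists were chosen with earlier results of these data known. The GI numbers matched 0 entries of the reference table, so the lists (metal response, heat shock, NRF2 and glutathione, unfolded protein response and ATF4, immediate early, p53 targets, ubiquitin and proteasome) and the cell type markers were not tested. Features named were the 2 with the largest mean rise over the A0 times and the 2 with the largest fall among those called lower at A0 12 h than at A0 1 h. Alternatives covered normalisation, filter, variance model, arrays in the model, the replicate number as a block and the omission of each array. Slides are not named, so they could not enter as a block.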

Additional observations from a re-analysis of the deposited data

How the results depend on the processing

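Counts of called members moved by more than 1.5 times in the cases below, and the cause was not tested. The fit without a filter adjusted over more features and also took its prior variance from them. For A0 12 h against A0 6 h (1 call) there were 0 with no filter and 0 with the compared arrays only. For A0 12 h against A0 1 h (26 calls) there were 17 with no filter (14 higher, 3 lower). For A0 3 h against A0 1 h (0 calls) there was 1 with trended and robust variances. For cisplatin 3 h against control (8 calls) there were 13 with 75th percentile centring, 2 with no filter, 26 with trended and robust variances and 32 with a replicate block. For cisplatin 6 h against control (19 calls) there were 12 with no filter. On the authors' processed values the median difference from control was 1.301, 1.321, 1.345 and 1.227 at A0 1, 3, 6 and 12 h. Applying the choice of members to the neqc values, an alternative chosen after seeing the data like the choice without each array and the choice with 1 control, gave 55 features, 49 of them members.

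Leaving out 1 array at a time gave 6 to 35 calls for A0 12 h against A0 1 h, 0 to 1 for A0 12 h against A0 6 h, 0 to 0 for A0 3 h against A0 1 h, 0 to 1 for A0 6 h against A0 3 h, 1 to 19 for cisplatin 3 h and 0 to 22 for cisplatin 6 h against control, 0 to 0 for cisplatin 6 h against 3 h, and 0 to 1 for the drug by time interaction. The members' median differences from control then ran from 1.033 to 1.153 at A0 1 h, 0.936 to 1.256 at 3 h, 0.837 to 1.267 at 6 h, 0.908 to 1.005 at 12 h and 0.034 to 0.13 at cisplatin 12 h. In such fits a lone array is assumed to vary like the other groups.

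Same-numbered samples deviated together only in part: over 28 pairs of groups the correlation of their deviations ran from -0.259 to 0.378 (median 0.136), and it passed 0.1 in 18, so the numbers were not taken as pairs. With the replicate block there were 36 calls (20 higher, 16 lower) for A0 12 h against A0 1 h, 1 for A0 12 h against A0 6 h and 26 for cisplatin 6 h against control. For members undetected in the controls, dim signal leaves a difference from control uncertain.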
